A study of Homo sapiens with 12 samples.

Results

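Expression was compared between SW872 cells that stably expressed the YAP-TFE3 fusion (YT) and SW872 cells that stably expressed the TAZ-CAMTA1 fusion (TC), with a short hairpin RNA against ZZZ3 (shZZZ3) in both lines. The comparison used the 4 libraries titled for shZZZ3, 2 of YT and 2 of TC, of 12 in the series. The other libraries carried a non-targeting hairpin (shNT) or a hairpin against YEATS2 (shYEATS2), again with 2 libraries for each fusion, and the shNT libraries were used to ask which differences between the fusion lines were present with each hairpin. SW872 is a human liposarcoma cell line, and every library also carried its own endogenous YAP1, WWTR1 (TAZ), CAMTA1 and TFE3 genes. Poly(A) RNA was read with a stranded TruSeq kit. The fusions had been introduced by retrovirus and the hairpins by lentivirus with drug selection, so each line was a selected pool. The methods of the study state that cell lines containing CAMTA1 were collected before confluence and other lines after they had grown confluent. Whether this held for the hairpin libraries is not stated, and if it did, growth state and fusion cannot be told apart. A line without a fusion was not analysed here, so a difference between YT and TC does not say which line had moved.

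YAP-TFE3 and TAZ-CAMTA1 are chimeric transcription factors that define subsets of epithelioid hemangioendothelioma, a vascular sarcoma. Both keep the part of YAP or TAZ that binds TEAD factors, which recognise the motif GGAATG. YAP-TFE3 ends in the activating and DNA-binding parts of TFE3, a factor of lysosome and nutrient genes that binds CACGTG, whereas TAZ-CAMTA1 ends in CAMTA1. ZZZ3 is a subunit of the ATAC histone acetyltransferase complex that holds the complex to the tail of histone H3, and YEATS2 is another subunit, which reads acylated histone H3.

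The study had 5 ZZZ3 hairpins, and which of them was used for RNA sequencing is not stated in the sources used here. Their target sites are shown because they define the knock-down. Each is written 5′ to 3′ in the sense of the transcript, and capitals mark target positions 14 to 20, which pair with bases 2 to 8 of the guide strand, its seed.
hairpin 1: tcaaagaacttggTCATAAAt
hairpin 2: ttcccgatctactCGTGTTAc
hairpin 3: cgcatcctgaagaAATCTCTt
hairpin 4: gcatcagatgacgAAAGTATt
hairpin 5: gacgacagcacccTCTTAATa
All 5 lay in ZZZ3 on the minus strand of chromosome 1 (hg38) and matched transcripts of no other gene. In the canonical transcript of 15 exons, hairpin 1 (chr1:77565309-77565329) targeted the 3′ UTR in exon 15, and the other hairpins targeted coding sequence. Hairpin 2 (chr1:77633326-77633346) and hairpin 3 (chr1:77633234-77633254) targeted exon 5, hairpin 5 (chr1:77576187-77576207) targeted exon 12, and the site of hairpin 4 was split between exons 12 and 13.

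The 4 shZZZ3 libraries held 18654191 to 29294805 counts, and all 12 held 17451893 to 29294805. Values are given as CPM (counts scaled to 1000000 a library, with TMM factors), always in the order replicate 1, replicate 2. Fold changes are log2 of YT over TC with their standard error (SE), and a gene was called at an edgeR quasi-likelihood p-value under 0.05 after Benjamini-Hochberg adjustment over the 18415 genes tested. The study describes its RNA sequencing replicates as biological duplicates. The labels do not say what set them apart, so p-values measure the spread between these libraries. The 2 YT shZZZ3 libraries differed from each other along the GC content of genes (Spearman correlation 0.742 over 13258 genes with a mean of 50 counts or more, with a spread, as a scaled median absolute deviation, of 0.618 log2), as did the 2 TC shNT libraries (0.820 and 0.708). The 2 TC shZZZ3 libraries were close (0.183). Offsets for GC content lowered the YT shZZZ3 spread to 0.330. Calls under such offsets are given in the closing section.

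ZZZ3 itself was read at 12.6 and 29.6 CPM in YT shZZZ3, 21.9 and 22.7 in TC shZZZ3, whereas the shNT libraries held 71.2 and 49.1 (YT) and 25.6 and 60.4 (TC). Within each fusion, both shZZZ3 libraries lay below both shNT libraries. The log2 change with shZZZ3 was −1.51 ± 0.426 (SE) in YT (adjusted p = 0.0453) and −0.94 ± 0.422 in TC (adjusted p = 0.45), so the reduction passed the test in YT and not in TC. Between the lines with shZZZ3, ZZZ3 differed by −0.08 ± 0.421 (adjusted p = 0.974). Of 11 ATAC subunits, none was called between the lines with shZZZ3 by edgeR or DESeq2, and none had an unadjusted p under 0.05.

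CAMTA1 marked the lines. It was at 30.4 and 23.2 CPM in YT shZZZ3 against 154 and 137 in TC shZZZ3, a difference of −2.44 ± 0.222 (adjusted p = 0.000345). The pairs did not overlap, and reads of the fusion and of the gene itself cannot be told apart in these counts. WWTR1, YAP1 and TFE3, the other genes that lend sequence to the fusions, were not called (log2 difference 0.20, 0.14 and 0.25, adjusted p = 0.819, 0.918 and 0.792).

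With shZZZ3, 482 genes (2.62% of those tested) were called between the lines. Of these, 279 (1.52%) were higher in YT and 203 (1.1%) were lower. With shNT, 1699 genes (9.23%) were called, 1027 (5.58%) higher and 672 (3.65%) lower in YT. The CPM values of the 2 YT and 2 TC libraries did not overlap at 40.3% of genes with shZZZ3 and at 51.3% with shNT, so a lack of overlap alone was common. The spread of the log2 difference over the 13258 better-read genes was 0.289 with shZZZ3 and 0.481 with shNT. With shYEATS2, 2242 genes (12.2%) were called, 1040 (5.65%) higher and 1202 (6.53%) lower in YT, and 59.7% of genes did not overlap. Between shZZZ3 and shNT within a line, 281 genes (1.53%) were called in TC, 172 (0.934%) higher and 109 (0.592%) lower with shZZZ3, and 1846 (10%) in YT, 811 (4.4%) higher and 1035 (5.62%) lower. Over the 500 most variable genes, the mean Euclidean distance in log2 CPM between YT and TC libraries was 41.0 with shZZZ3 and 48.0 with shNT, against 8.25 between the 2 TC shZZZ3 libraries and 12.4 between the 2 YT shZZZ3 libraries. The count of 482 fell to 101 and 102 when TC shZZZ3 replicate 1 or 2 was left out, and to 249 without YT shZZZ3 replicate 2, and every one of the 482 genes kept its direction in each of these fits.

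The differences with the 2 hairpins came from separate libraries and were only loosely alike. Across 13258 genes, Pearson's r between them was 0.219, a description, since genes of a library are not independent and share its depth and GC trend. With shYEATS2 in place of shNT, r was 0.419. Of the genes called with shZZZ3, 132 (27.4% of these and 7.77% of those called with shNT) were also called with shNT in the same direction, 59 (12.2% and 3.47%) were called in the opposite direction, and 291 were not called with shNT. Whether a difference itself changed with the hairpin was tested as an interaction. It was called for 795 genes (4.32%), 268 (1.46%) with a higher and 527 (2.86%) with a lower YT minus TC difference under shZZZ3. Among the 1508 genes called with shNT and not with shZZZ3, 493 had a called interaction, and the difference was smaller with shZZZ3 in 485 of these. Among the 291 called with shZZZ3 alone, 129 had a called interaction, so for the other 162 no change between hairpins was shown. These counts changed without single libraries. Calls shared in direction and called interactions rose without TC shNT replicate 2 and fell without any other shZZZ3 or shNT library. Without TC shZZZ3 replicate 1 or 2, 36 and 35 genes were called under both hairpins in the same direction, 12 and 11 in opposite directions and 248 and 237 by the interaction. Without YT shNT replicate 1 or 2, the counts were 63 and 64, 18 and 13, and 259 and 204, and without YT shZZZ3 replicate 2 they were 88, 28 and 685. With shNT, the 1699 calls became 1023 or 3108 without TC shNT replicate 1 or 2, and 523 or 486 without YT shNT replicate 1 or 2.

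**Figure D1:**
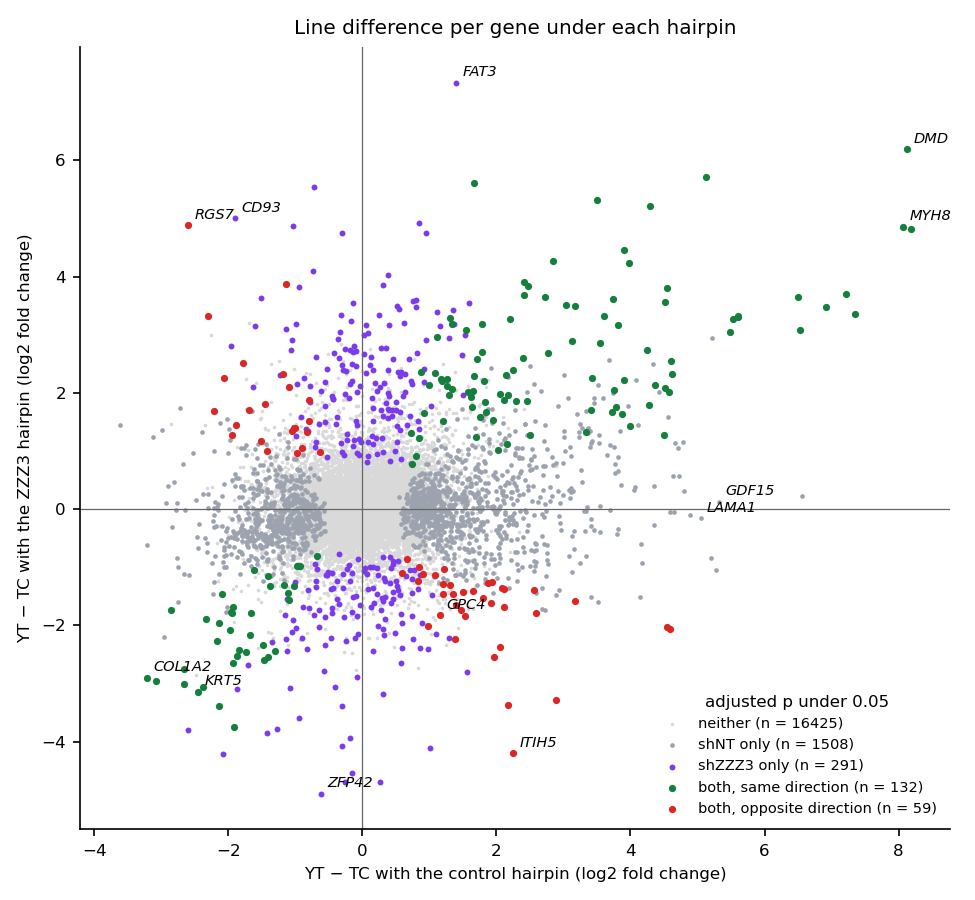
Log2 difference between YT and TC with shNT (horizontal axis) and with shZZZ3 (vertical axis), 1 point per gene tested, coloured by the test that called it. The 132 genes called under both hairpins in the same direction lie in the lower left and upper right, the 59 of opposite direction in the other corners, and most of the 1508 genes called with shNT alone lie near 0 on the vertical axis.

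The genes with the largest positive differences with shZZZ3 were read at few counts in TC shZZZ3. FAT3, a giant protocadherin, was at 17.7 and 25.9 CPM in YT shZZZ3 and at 0.0406 and 0.0534 in TC shZZZ3, which was 1 count in each TC library. The ratio was 466 with a 95% interval of 129 to 3851 from counting error, and the fitted difference was 7.34 ± 0.778 (adjusted p = 0.000322). With shNT both lines expressed it, at 5.81 and 3.34 CPM in YT and 1.3 and 2.1 in TC, and the interaction was called (5.94 ± 0.993, adjusted p = 0.00259). FAT3 was thus lower in TC and higher in YT with shZZZ3 than with shNT (−3.71 and 2.23, adjusted p = 0.0169 and 0.00958).

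For other leading genes the difference was likewise wider with the ZZZ3 hairpin. PRSS12, a serine protease of neurons, was at 4.55 and 3.93 CPM in YT shZZZ3 and at 0 in both TC shZZZ3 libraries. It was at least 30.1-fold higher in YT against a floor of 3 counts in each TC library. With shNT it was at 0.739 and 0.46 CPM in YT and 0.0763 and 0.191 in TC, and the interaction was 3.94 (adjusted p = 0.0191). CAPN6, a calpain-like protein of the cytoskeleton, was at 4.69 and 3.21 CPM against 0.0812 and 0 (4.91 ± 0.623, adjusted p = 0.000416). In YT and TC with shNT it was at 0.792, 0.69, 0.496 and 0.239 CPM, and the interaction was 4.08 (adjusted p = 0.00732). CD93, a lectin-like receptor of endothelial cells, was at 4.15 and 7.4 CPM in YT shZZZ3 against 0.0406 and 0.16 in TC shZZZ3 (5.0 ± 0.974, adjusted p = 0.00755). Its order was turned with shNT, where YT was at 0.37 and 0.46 CPM and TC at 1.45 and 2.15, and the interaction was 6.90 (adjusted p = 0.00649). FRMPD4, a scaffold of synapses, and DGKK, a diacylglycerol kinase, were likewise higher in YT (5.55 and 4.87, adjusted p = 0.0106 and 0.00461) with called interactions (6.27 and 5.90, adjusted p = 0.0301 and 0.0427).

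Several leading genes were high in YT with either hairpin. SEMA3A, a secreted guidance cue, was at 3.49 and 7.23 CPM in YT shZZZ3 against 0 and 0.107 in TC shZZZ3 (5.32 ± 0.742, adjusted p = 0.000715), and its difference with shNT was 3.5 (adjusted p = 0.00308). FLRT3, an adhesion protein of the FLRT family, was at 6.55 and 10.1 CPM against 0.162 and 0.107 (5.21 ± 0.533, adjusted p = 0.000345), with 4.28 under shNT (adjusted p = 0.000466). In both genes every YT library lay above every TC library with each hairpin. MCTP1, a calcium-binding membrane protein, was at 10.2 and 15.9 CPM in YT shZZZ3 and 60.2 and 41.7 in YT shNT, and did not pass 0.534 in any TC library of these hairpins (4.82 and 8.18, adjusted p = 0.00146 and 5.32e-05).

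**Figure D2:**
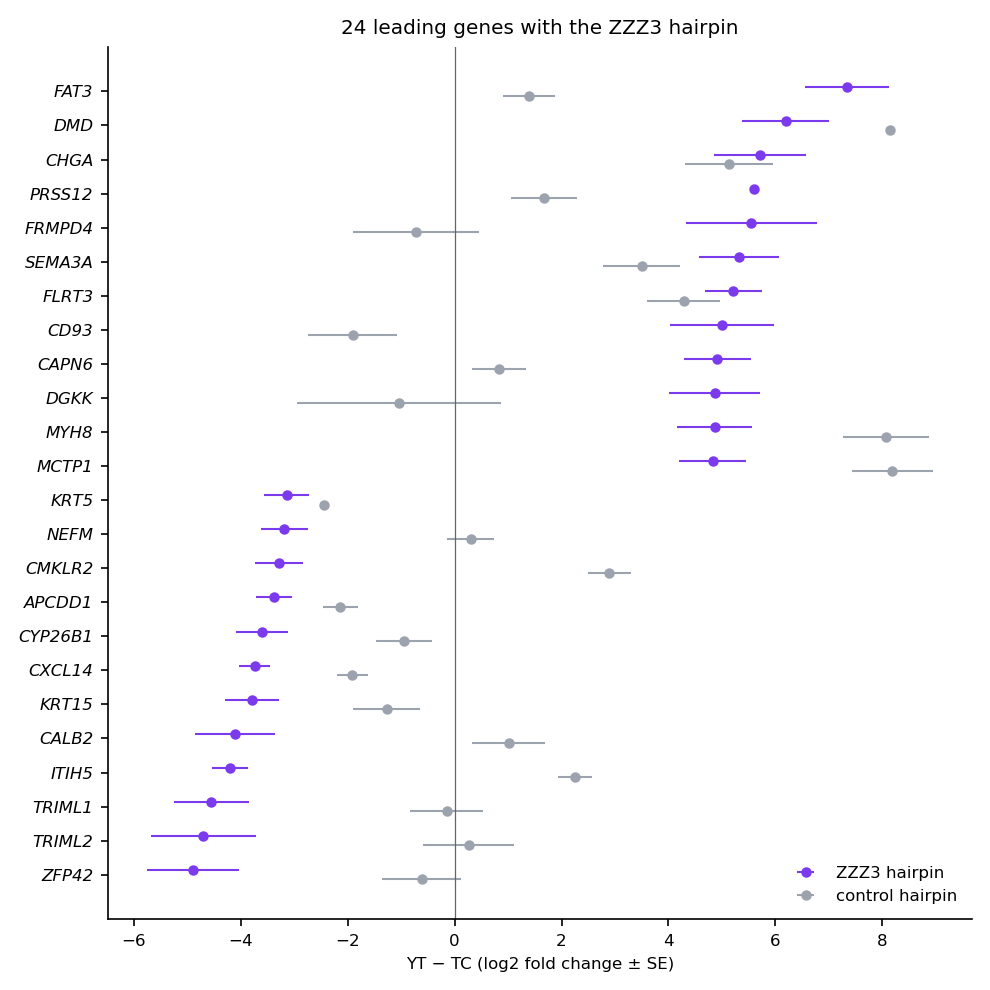
Log2 difference between YT and TC (horizontal axis, with SE bars) for the 12 protein-coding genes with the largest positive and the 12 with the largest negative difference with shZZZ3, shown with shZZZ3 (purple) and shNT (grey). Values with shNT range from above those with shZZZ3 (MCTP1, MYH8) to the other side of 0 (CD93, ITIH5, CMKLR2), and points without a bar have a group with no counts.

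The largest negative difference was in ZFP42 (REX1), a zinc finger protein known from pluripotent cells. It was at 2.73 and 2.2 CPM in YT shZZZ3 and at 74.9 and 76.6 in TC shZZZ3 (−4.89 ± 0.856, adjusted p = 0.0105). With shNT the lines were close, at 7.23 and 9.55 CPM in YT and 12.5 and 13.2 in TC (−0.61, adjusted p = 0.655), and the interaction was −4.28 (adjusted p = 0.0486). Its neighbours on chromosome 4 moved with it. TRIML2, a TRIM-like gene, was at 7.28 and 6.94 CPM in YT shZZZ3 against 183 and 189 in TC shZZZ3 (−4.69, adjusted p = 0.0285), and TRIML1 at 0.182 and 0.169 against 6.25 and 5.93 (−4.55 ± 0.693, adjusted p = 0.00357). The 3 genes lie within chr4:187995771-188147743. In all of them the pair of TC shZZZ3 libraries was the highest of the 4 groups with shZZZ3 or shNT, and the TC pair itself had risen from shNT for TRIML1 (2.94, adjusted p = 0.0272). ZFP42 and TRIML2 lost their calls without any 1 of the 4 shZZZ3 libraries (adjusted p up to 0.0720 and 0.139), whereas TRIML1 kept its call each time.

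Secreted and signalling genes were among the other genes lower in YT. CXCL14, a chemokine, was at 9.06 and 5.58 CPM in YT shZZZ3 and 103 and 94.8 in TC shZZZ3 (−3.74 ± 0.286, adjusted p = 0.00012). It was lower in YT with shNT too, at 3.17 and 2.82 against 13.2 and 9.84 (−1.91, adjusted p = 0.00185), and the gap was wider with shZZZ3 (interaction −1.82, adjusted p = 0.023). APCDD1, a membrane inhibitor of Wnt signalling, was at 2.18 and 2.03 CPM against 23.6 and 21.8 (−3.38 ± 0.336, adjusted p = 0.000433), with −2.13 under shNT (adjusted p = 0.00225). CYP26B1, which breaks down retinoic acid, was at 0.837 and 0.93 CPM against 10.8 and 12.5 (−3.59 ± 0.484, adjusted p = 0.00228). The keratin KRT15 (0.873 and 0.973 against 14.1 and 13.6 CPM) and the neurofilament NEFM (0.837 and 0.423 against 6.9 and 6.09 CPM) followed the same order, with differences of −3.79 and −3.18 (adjusted p = 0.00203 and 0.00243). CALB2, the calcium buffer calretinin, was at 4.66 and 1.95 CPM against 65 and 52.2 (−4.11, adjusted p = 0.0124).

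Of these 24 leading genes, 16 kept their call whichever of the 4 libraries was left out. CHGA, FRMPD4, CD93, DGKK and MYH8 lost it without either TC shZZZ3 library (adjusted p up to 0.136), and CALB2 also without YT shZZZ3 replicate 2 (adjusted p up to 0.0819). The remaining ones that did not keep it were ZFP42 and TRIML2.

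DMD, CHGA and LMOD1 were higher in YT with both hairpins. DMD, which encodes dystrophin, was at 6.37 and 9.77 CPM in YT shZZZ3 against 0.0406 and 0 in TC shZZZ3, a ratio of 344 with a counting interval of 61.4 to 13625 on 1 count. With shNT it was at 30.6 and 19.2 CPM in YT and 0 in both TC libraries, at least 193-fold higher. CHGA, the granule protein chromogranin A, was at 24.3 and 18.9 CPM in YT shZZZ3 and 0.284 and 0.374 in TC shZZZ3 (5.71 ± 0.864, adjusted p = 0.00357), close to the 16.4 and 17.9 against 0.42 and 0.382 with shNT (5.13 ± 0.829, adjusted p = 0.00227). LMOD1, a smooth muscle leiomodin, was at 12.8 and 8.04 CPM against 0.772 and 0.534 (3.81 ± 0.337, adjusted p = 0.000296), with 4.54 under shNT. In all 3 genes the YT and TC libraries lay far apart with each hairpin.

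The skeletal myosin heavy chains formed a run on chromosome 17. MYH8, the perinatal chain, was at 23.1 and 30.6 CPM in YT shZZZ3 and 0.731 and 0.962 in TC shZZZ3 (4.86 ± 0.697, adjusted p = 0.00327), and at 124 and 118 against 0.305 and 0.43 with shNT (8.06). MYH2 was at 9.24 and 9.01 CPM against 0.731 and 0.481 (3.71 ± 0.51, adjusted p = 0.00235), and at 42.4 and 40.4 against 0.229 and 0.143 with shNT (7.22). The difference was smaller with shZZZ3 in MYH2 and MYH1 by the interaction (−3.51 and −3.44, adjusted p = 0.0229 and 0.0407), which was not called for MYH8 and MYH13 (−3.20 and −3.99, adjusted p = 0.108 and 0.131). These chains are close in sequence, so reads can be shared among them. Of 19 sarcomere genes tested, edgeR called 5 higher in YT shZZZ3 (1.52% of all genes), and DESeq2 called 4 higher and 1 lower. Beside the 4 myosins, TTN (titin), was at 0.983 and 1.14 CPM against 0.244 and 0.267 (1.74, adjusted p = 0.0446). The median log2 difference over the 19 was 0.15 with shZZZ3, and 11 were positive. Without TC shZZZ3 replicate 1 or 2, 2 and 0 of the 5 were called.

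Genes lower in YT with both hairpins included matrix genes. COL1A2, a chain of type I collagen, was at 13.2 and 11.1 CPM in YT shZZZ3 and 85.2 and 97.2 in TC shZZZ3 (−2.90 ± 0.201, adjusted p = 9.64e-05), and at 8.71 and 9.2 against 85.4 and 81.9 with shNT (−3.21 ± 0.206). The interaction was 0.32 ± 0.269 (adjusted p = 0.632). The scavenger receptor COLEC12 was at 30.2 and 34 CPM against 118 and 132 (−1.96, adjusted p = 0.000416) and the RING finger protein RNF150 at 4.59 and 4.57 against 18.5 and 20.7 (−2.08, adjusted p = 0.00589), and both were lower in YT with shNT by a similar amount (−2.13 and −1.98). The basal keratin KRT5 was at 3.13 and 1.18 CPM in YT shZZZ3 and 21.3 and 18.4 in TC shZZZ3 (−3.14 ± 0.425, adjusted p = 0.00337), while with shNT it was at 0 in both YT libraries and at 0.534 and 0.239 in TC. Of the 12 genes of this kind with the largest differences, 8 kept their call with shZZZ3 whichever library was left out. CHGA and MYH8 lost it without either TC shZZZ3 library, and RNF150 without TC shZZZ3 replicate 2 (adjusted p = 0.0588).

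**Figure D3:**
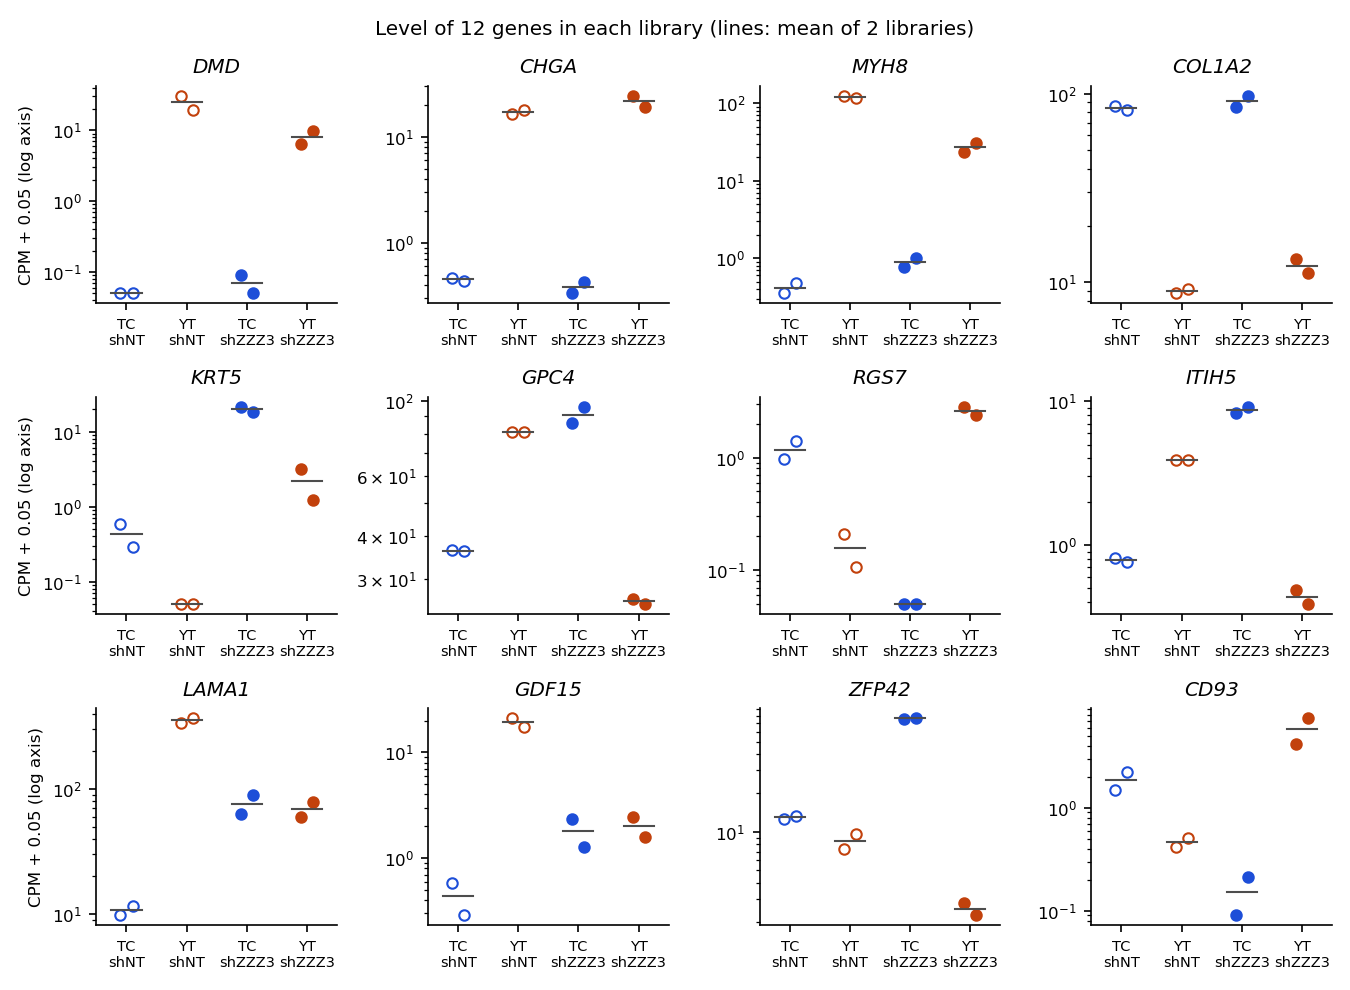
CPM plus 0.05 on a log axis for 12 genes in TC and YT libraries (blue and orange) with shNT (open points) and shZZZ3 (filled points), with a line at the mean of each pair. DMD, CHGA, MYH8, COL1A2 and KRT5 keep the order of the lines, GPC4, RGS7 and ITIH5 turn it, LAMA1 and GDF15 separate the lines with shNT alone, and ZFP42 and CD93 separate them most with shZZZ3.

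In 59 genes the order of the lines was called in opposite directions. RGS7, a regulator of G-protein signalling, was at 2.77 and 2.33 CPM in YT shZZZ3 and at 0 in both TC shZZZ3 libraries, at least 18-fold higher. With shNT, YT was at 0.158 and 0.0575 CPM and TC at 0.916 and 1.34 (−2.60, adjusted p = 0.0187), and the interaction was 7.49 (adjusted p = 0.00129). ITIH5, a hyaluronan-binding heavy chain, went the other way, with 0.437 and 0.338 CPM in YT shZZZ3 against 8.24 and 9.09 in TC shZZZ3 (−4.19 ± 0.337, adjusted p = 0.00012) and 3.85 and 3.85 against 0.763 and 0.717 with shNT (2.25 ± 0.316, adjusted p = 0.001). CMKLR2, a chemerin receptor, was at 0.655 and 0.296 CPM against 6.58 and 4.33 with shZZZ3 (−3.28, adjusted p = 0.00228) and at 12.9 and 15.2 against 1.18 and 2.48 with shNT (2.90, adjusted p = 0.00119). The pairs were apart under each hairpin in all 3 genes. Of the 6 genes of opposite direction with the largest differences, these 3 kept their call with shZZZ3 whichever library was left out. The others, LPAR6, LINC01582 and ATP10A, lost it without either TC shZZZ3 library or without YT shZZZ3 replicate 2 (adjusted p up to 0.332, 0.0958 and 0.148).

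Surface and matrix genes with higher levels turned as well. GPC4, a glypican, was at 26.2 and 25.2 CPM in YT shZZZ3 and 85.9 and 95.8 in TC shZZZ3 (−1.82 ± 0.228, adjusted p = 0.00183), whereas with shNT it was at 80.6 and 80.9 in YT and 36.5 and 36.1 in TC (1.15 ± 0.223, adjusted p = 0.00848). MGP, matrix Gla protein, an inhibitor of calcification, was at 172 and 154 CPM against 55.9 and 45.5 with shZZZ3 (1.68 ± 0.259, adjusted p = 0.00526) and 25.7 and 28.2 against 139 and 111 with shNT (−2.21). COL3A1, the chain of type III collagen, was at 27 and 32.1 CPM against 5.24 and 6.41 (2.33 ± 0.292, adjusted p = 0.00177) and 14.9 and 16.7 against 33.6 and 38.1 (−1.18, adjusted p = 0.0218). For the 3 genes the interaction was −2.97, 3.89 and 3.51 (adjusted p = 0.000831, 0.000484 and 0.00108). Elastic fibre protein FBLN5 was at 14.7 and 12 CPM in YT shZZZ3 and 34.8 and 29.9 in TC shZZZ3 (−1.27, adjusted p = 0.0341), a call that was lost without any 1 of the 4 libraries (adjusted p up to 0.266), and at 55 and 57.7 against 16 and 14.5 with shNT (1.88).

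Most genes of the integrated stress response were called between the lines with shNT, and 1 was called with shZZZ3. This response works through ATF4, which raises genes of amino acid supply and of growth arrest. Of 25 genes tested, 21 were called higher and 0 lower in YT with shNT (5.58% and 3.65% of all genes), with a median log2 difference of 2.05. With shZZZ3, 0 were called higher and 1 lower (1.52% and 1.1% of all genes), and 6 had an unadjusted p under 0.05. The median was −0.43, and 2 members were positive. The interaction was called lower for 18 of 25 (2.86% of all genes) and higher for 0, and for 11 to 20 of 25 when any 1 of the 8 libraries was left out. Summed over the list, YT shNT stood at 6479.7 and 6961 CPM, TC shNT at 2392 and 1872, YT shZZZ3 at 2605 and 1569 and TC shZZZ3 at 3114 and 3016. YT shNT was thus highest, and TC shZZZ3 lay above YT shZZZ3 and TC shNT, which overlapped. With shYEATS2, 0 of 25 were called higher and 5 lower (5.65% and 6.53% of all genes). The median there was −0.70, and 0 members were positive. The sums were 2263 and 2148 CPM in YT shYEATS2 and 2811 and 4131 in TC shYEATS2. A lead of YT was thus absent with shYEATS2 as well.

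The single genes described here were also highest in YT shNT, and the order of the other groups varied. DDIT3 (CHOP), a factor of cell death under stress, was at 21.5 and 20.2 CPM in YT shZZZ3, 16.2 and 24.4 in TC shZZZ3, whereas the shNT libraries held 127 and 143 (YT) and 13.7 and 12.5 (TC), with an interaction of −3.32 (adjusted p = 0.00156). INHBE, a subunit of activin E, was at 4.73 and 1.65, 5.85 and 7.7, 75.8 and 93.9, and 1.91 and 2.29 CPM in the same order, with an interaction of −6.33 (adjusted p = 0.00457). The 1 gene called with shZZZ3 was SLC7A5, a carrier of large amino acids, at 272 and 137 CPM in YT against 507 and 467 in TC (−1.25 ± 0.285, adjusted p = 0.0426). It was at 735 and 852 against 231 and 184 with shNT (1.93, adjusted p = 0.00205), so its order turned, though the call with shZZZ3 held only without YT shZZZ3 replicate 1 (adjusted p up to 0.264 for the others). GDF15, a stress cytokine outside the list, was at 2.4 and 1.52 CPM in YT shZZZ3, 2.31 and 1.23 in TC shZZZ3, whereas the shNT libraries held 21.2 and 17.5 (YT) and 0.534 and 0.239 (TC) (interaction −5.19, adjusted p = 0.002).

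Cell cycle genes were lower in YT with shNT, and their list medians were negative with shZZZ3 too. Of all genes, 3.65% were called lower in YT with shNT and 1.1% with shZZZ3. The interaction was called higher at 1.46% of all genes. Of 24 mitosis genes, 15 were lower in YT with shNT and none higher (median −1.31), and 5 to 21 when 1 of the 4 libraries was left out (9 and 5 without YT shNT replicate 1 or 2). With shZZZ3 edgeR and DESeq2 called none of the 24, 6 had an unadjusted p under 0.05, and the median was −0.41 with 4 positive members. Of 30 DNA replication genes, 17 were lower with shNT (2 and 5 without YT shNT replicate 1 or 2, and 10 without TC shNT replicate 1), and with shZZZ3 edgeR and DESeq2 called none and 6 had an unadjusted p under 0.05 (medians −0.95 and −0.38). GC offsets gave 2 lower calls in each list with shZZZ3. With shYEATS2, 5 mitosis and 7 DNA replication genes were lower and none higher (6.53% and 5.65% of all genes). The medians there were −0.80 and −0.70. The interaction was called for 2 of 24 and 1 of 30, so a change of the difference was not shown for most of these genes. Summed CPM over the mitosis list was 2094 and 2133 in YT shZZZ3, 2741 and 2665 in TC shZZZ3, whereas the shNT libraries held 799 and 595 (YT) and 1782 and 2039 (TC), and the pairs did not overlap with either hairpin. CCNB1, cyclin B1, was at 279 and 214 CPM in YT shZZZ3, 339 and 314 in TC shZZZ3, whereas the shNT libraries held 70.7 and 62.7 (YT) and 248 and 206 (TC) (interaction 1.36, adjusted p = 0.0229). Of 14 CDK inhibitors and D cyclins, 2 were called with shZZZ3, both higher in YT (1.52% of all genes). CCND2, cyclin D2, had few counts in YT shZZZ3 and 0 in TC shZZZ3 (2.85, adjusted p = 0.0273). CDKN2B (p15), an inhibitor of cyclin D kinases, was at 41.8 and 55.2 CPM in YT shZZZ3 and 22.3 and 22.1 in TC shZZZ3 (1.12, adjusted p = 0.0273). With shNT the difference of CDKN2B was 2.16. Its call with shZZZ3 was lost without either TC shZZZ3 library or YT shZZZ3 replicate 2 (adjusted p up to 0.234).

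Fewer TFE3 targets of nutrient sensing and autophagy were called with shZZZ3 than with shNT, as held for all genes tested. Of all genes, 5.58% were called higher in YT with shNT and 1.52% with shZZZ3, and 3.65% and 1.1% were called lower. The interaction was called lower at 2.86% of all genes. Of 19 tested, 9 were higher in YT with shNT, and with shZZZ3 edgeR called 1 and DESeq2 called 4 (medians 0.79 and 0.15). With shYEATS2, 4 were higher and 1 lower (5.65% and 6.53% of all genes, median 0.18). Of the 19, 6 had a called interaction, all lower with shZZZ3 (3 without either YT shNT library). GPNMB, a lysosomal glycoprotein, was at 127 and 136 CPM in YT shZZZ3 and 93 and 115 in TC shZZZ3 (0.34, adjusted p = 0.53), and at 410 and 446 against 73.4 and 99.1 with shNT (2.31, adjusted p = 5.32e-05), with an interaction of −1.97 (adjusted p = 0.00251). RRAGD, a Rag GTPase of the mTORC1 branch, was at 25.5 and 26.5 CPM against 14.05 and 16.8 with shZZZ3 and at 67.6 and 72.2 against 9.19 and 12.2 with shNT (interaction −1.95, adjusted p = 0.00353). The gene that stayed was PPARGC1A (PGC-1α), a coactivator of mitochondrial biogenesis, at 6.7 and 9.52 CPM against 1.3 and 1.34 (2.54, adjusted p = 0.00278) and 15.5 and 12.7 against 0.381 and 0.621 with shNT (4.61), though without a TC shZZZ3 library it was not called (adjusted p up to 0.0571). Of 32 lysosomal enzymes and membrane proteins, 1 was called with shZZZ3 and 10 with shNT (4 and 2 without YT shNT replicate 1 or 2), all higher in YT. The gene called with shZZZ3 was TPP1, a peptidase, at 333 and 300 CPM against 170 and 198 (0.78, adjusted p = 0.0307), with 0.74 under shNT, and it too lost its call with shZZZ3 when any 1 of the 4 libraries was left out (adjusted p up to 0.366). No subunit of the 19 of the lysosomal proton pump was called with shZZZ3 by edgeR or DESeq2 (1 had an unadjusted p under 0.05). Inflammatory genes gave 10 higher and 1 lower of 21 with shNT, and 2 higher (IL33 and LIF) and 1 lower (CXCL14) with shZZZ3. LIF lost its call without any 1 of the 4 shZZZ3 libraries (adjusted p up to 0.281), and with shNT 6, 5 and 4 were higher without TC shNT replicate 1, YT shNT replicate 1 and YT shNT replicate 2.

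**Figure D4:**
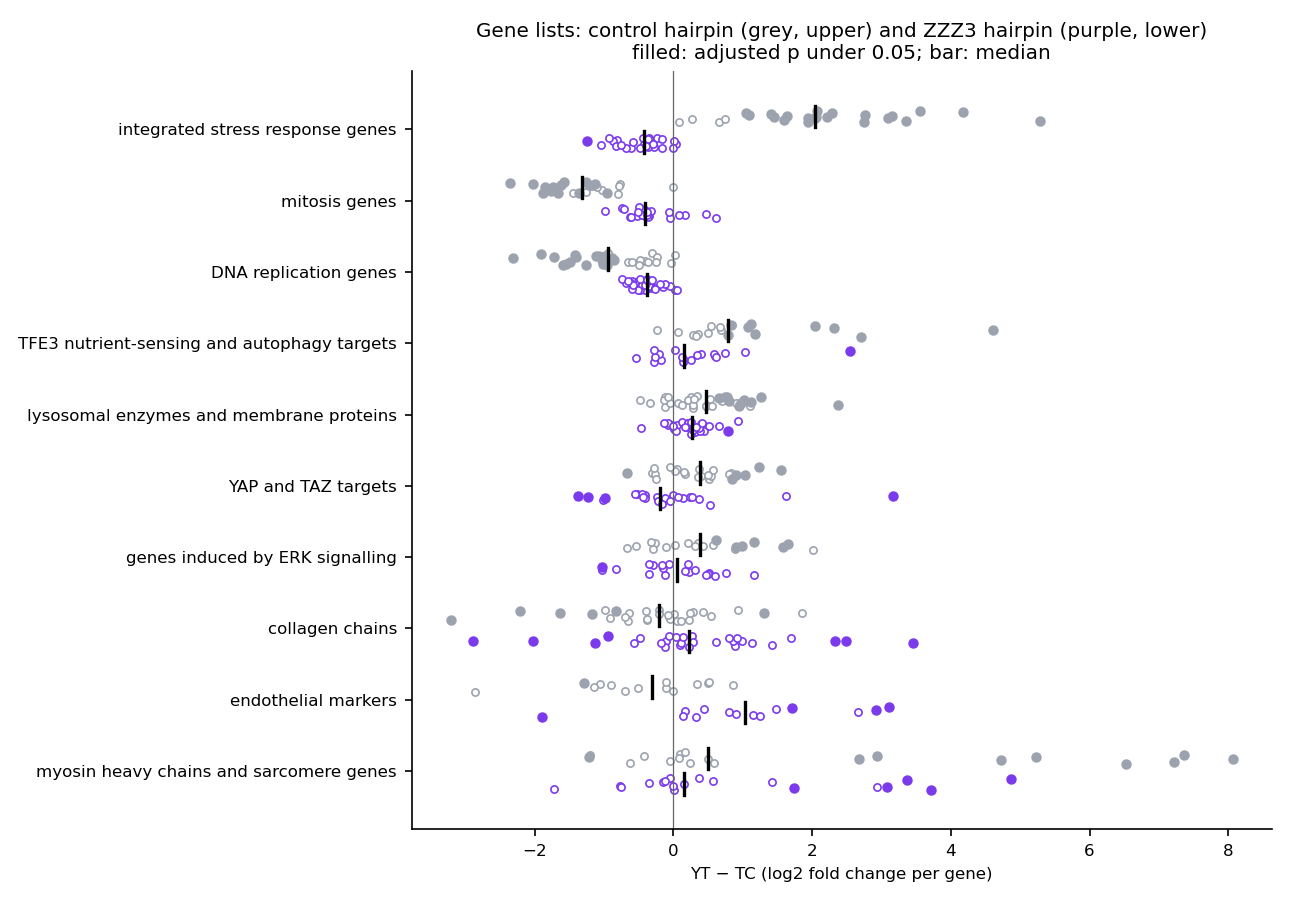
Log2 difference between YT and TC for the members of 10 gene lists, with shNT in grey above and shZZZ3 in purple below. Filled points are called genes and bars are list medians. The stress response list moves from a median of 2.05 to −0.43, and the mitosis and DNA replication lists lie nearer to 0 with shZZZ3.

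Genes that YAP and TAZ are known to raise did not move as a block. Of 24 tested with shZZZ3, 1 was higher and 3 were lower in YT (1.52% and 1.1% of all genes, median −0.20). With shNT 5 were higher and 1 lower (5.58% and 3.65% of all genes, median 0.38). The interaction was called for 2 higher and 7 lower (1.46% and 2.86% of all genes). With shNT, 3 were higher without TC shNT replicate 1 and 2 without either YT shNT library, which also left 0 lower. The interaction was called for 0 higher and 1 lower without YT shNT replicate 2, for 1 and 4 without YT shNT replicate 1 or TC shZZZ3 replicate 2, and for 1 and 2 without TC shZZZ3 replicate 1. ANKRD1, a muscle ankyrin repeat protein, was at 5.24 and 8.12 CPM in YT shZZZ3 and 0.69 and 0.641 in TC shZZZ3 (3.16 ± 0.366, adjusted p = 0.00078). With shNT it was at 1 and 0.69 CPM in YT and 0.687 and 0.956 in TC, so YT shZZZ3 was the one high group (interaction 3.10, adjusted p = 0.00827). CCN2 (CTGF), a secreted matrix protein, took the opposite course, at 30.3 and 30.4 CPM in YT shZZZ3 and 76.3 and 66.4 in TC shZZZ3 (−1.23 ± 0.228, adjusted p = 0.0141) and at 53.5 and 60.7 against 38.5 and 41.8 with shNT (interaction −1.74, adjusted p = 0.0123). AMOTL2 and LATS2, which restrain YAP and TAZ, were at 44.5 and 36.8 against 116 and 95.1 CPM (−1.37, adjusted p = 0.0201) and 19.2 and 20.9 against 41.7 and 37.8 CPM (−0.99, adjusted p = 0.0186). ANKRD1 kept its call without any 1 library, whereas CCN2, AMOTL2 and LATS2 lost theirs each time (adjusted p up to 0.158, 0.195 and 0.209). Among 7 TEAD factors and VGLL cofactors, 1 was called, VGLL2, a TEAD cofactor of muscle, at 1.38 and 1.35 CPM in YT shZZZ3 and 0 in both TC shZZZ3 libraries, at least 9.70-fold higher. Without TC shZZZ3 replicate 1 it was not called (adjusted p = 0.0625).

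ANKRD1 and CCN2 are shown with the 250 bases before their RefSeq start (GRCh38.p14, both on the minus strand of the genome), since both are classical TEAD targets and moved in opposite directions. Capitals mark GGAATG on the strand shown.
ANKRD1, chr10:90921088-90921337: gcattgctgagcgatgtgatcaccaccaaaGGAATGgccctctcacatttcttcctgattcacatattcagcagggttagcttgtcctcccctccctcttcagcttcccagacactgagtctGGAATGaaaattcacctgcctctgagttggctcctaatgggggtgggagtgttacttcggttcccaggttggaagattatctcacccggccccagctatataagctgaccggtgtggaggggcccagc
CCN2, chr6:131951373-131951622: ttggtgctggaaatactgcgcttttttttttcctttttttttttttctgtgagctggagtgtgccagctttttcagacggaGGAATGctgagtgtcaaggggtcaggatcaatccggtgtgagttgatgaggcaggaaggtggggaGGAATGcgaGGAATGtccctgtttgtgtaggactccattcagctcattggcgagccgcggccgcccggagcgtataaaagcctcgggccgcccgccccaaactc
ANKRD1 held the letters 220 to 215 and 128 to 123 bases before the start, and CCN2 at 169 to 164, 104 to 99 and 95 to 90 bases. Searched on both strands of the 250 bases before the start, GGAATG was found for 9 of the 18 listed YAP and TAZ targets with a window. It was found in 18.9% of 196 genes higher in YT shZZZ3, 20.4% of 137 genes lower, 25.6% of 90 genes called under both hairpins in the same direction, and 13.3% of all 12654 tested genes with a window. CACGTG was found in 8.67%, 8.76%, 8.89% and 10.9% of the same sets, and TGANTCA, the letters of AP-1, in 14.3%, 12.4%, 18.9% and 6.40%. These are shares of letters, and binding was not measured here.

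Matrix genes gave calls in both directions with shZZZ3. Of 34 elastic fibre and adhesive glycoproteins, 7 were higher and 1 lower in YT (1.52% and 1.1% of all genes, median 0.18). The interaction was higher for 9 and lower for 3 (1.46% and 2.86% of all genes). TNC (tenascin C) was at 1725 and 2274 CPM in YT shZZZ3 and 660 and 874 in TC shZZZ3 (1.38, adjusted p = 0.0273), and at 470 and 519 against 828 and 943 with shNT (interaction 2.22, adjusted p = 0.0117). HMCN1 (hemicentin) was at 26.7 and 49.1 CPM against 0.893 and 1.82 (4.75 ± 0.656, adjusted p = 0.00281), with an interaction of 5.05 (adjusted p = 0.0071). EFEMP1 (fibulin 3) was higher in YT at 12.6 and 13.2 CPM against 2.31 and 3.05 (2.24, adjusted p = 0.00146) and also with shNT (1.18, adjusted p = 0.0155). The other 4 that were higher were MGP, TGFBI, SMOC1 and SMOC2. Without TC shZZZ3 replicate 1 or 2, 1 and 2 genes were called higher. The interaction was called for 1 higher and 1 lower without TC shZZZ3 replicate 1 or YT shNT replicate 2, for 3 and 1 without TC shZZZ3 replicate 2, and for 2 and 2 without YT shNT replicate 1.

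Among 29 collagen chains, 3 were higher (COL3A1, COL5A2 and COL8A1) and 4 were lower (COL1A2, COL6A3, COL14A1 and COL16A1) in YT shZZZ3. Over all genes, 1.52% were called higher and 1.1% lower. COL8A1, a short-chain collagen of vessel walls, was at 86 and 121 CPM against 8 and 10.9 (3.45 ± 0.433, adjusted p = 0.00184), with 38.6 and 42.6 against 21.7 and 34 under shNT (interaction 2.91, adjusted p = 0.0165). The partner chains of type I collagen parted. COL1A1 was at 42.3 and 34 CPM in YT shZZZ3 and 40.2 and 41.6 in TC shZZZ3 (−0.10, adjusted p = 0.942), but 13.3 and 12.3 against 66.5 and 52.5 with shNT (−2.21; interaction 2.11, adjusted p = 0.00798), whereas COL1A2 was lower in YT with both hairpins. Without either TC shZZZ3 library, 2 chains were called higher and 2 lower.

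With shZZZ3, 1.52% of all genes were called higher in YT and 1.1% lower. Of 21 proteoglycans, SDC3 was higher and SDC2 and GPC4 were lower. SDC2 and GPC4 kept their calls whichever library was left out, and SDC3 lost its call without either TC shZZZ3 library or YT shZZZ3 replicate 1 (adjusted p up to 0.343). SDC2, a syndecan, was at 46.7 and 43.2 CPM in YT shZZZ3, 129 and 126 in TC shZZZ3 and 51.2 to 56.6 in the shNT libraries of both lines (−1.50 ± 0.168, adjusted p = 0.00078, interaction −1.41, adjusted p = 0.00748). TC shZZZ3 was the one group apart. The proteases MMP14, at 660 and 537 CPM against 287 and 311 (1.0, adjusted p = 0.0174), and ADAMTS16, at 29.1 and 31.1 against 5.24 and 6.68 (2.32, adjusted p = 0.00203), were the 2 called of 27 matrix proteases and inhibitors, and MMP14 was not called without either TC shZZZ3 library or YT shZZZ3 replicate 1 (adjusted p up to 0.229). No laminin or basement membrane gene of 18 was called with shZZZ3 by edgeR (DESeq2 called 1, and 4 had an unadjusted p under 0.05). LAMA1, a laminin chain, was at 59.2 and 77.9 CPM in YT shZZZ3 and 62.8 and 89.6 in TC shZZZ3 (−0.15 ± 0.256, adjusted p = 0.909), against 340 and 371 in YT shNT and 9.73 and 11.6 in TC shNT (5.05 ± 0.305). Its interaction was −5.20 ± 0.386 (adjusted p = 0.000216), and the shZZZ3 levels of both lines lay between those with shNT.

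Adhesion and receptor genes differed too. Among 19 FAT, DCHS and classical cadherins, 3 were higher (FAT3, FAT4 and CDH2) and 2 were lower (FAT2 and CDH1) in YT shZZZ3 (median 0.40). Over all genes, 1.52% were called higher and 1.1% lower. FAT4, a receptor of planar polarity, was at 2.87 and 3.55 CPM against 0.122 and 0.16 (3.85 ± 0.41, adjusted p = 0.000338, interaction 3.55, adjusted p = 0.00226). FAT2 ran against it, at 3.86 and 4.31 CPM against 11.9 and 14.6 with shZZZ3 (−1.68, adjusted p = 0.00428) and 4.59 and 4.37 against 1.11 and 0.812 with shNT (2.12). CDH2, N-cadherin, was at 17.8 and 19 CPM against 4.02 and 4.22 (2.14 ± 0.208, adjusted p = 0.000416), a wider gap than with shNT (1.0, interaction 1.14, adjusted p = 0.0476). CDH1, E-cadherin, was at 0.0364 and 0.0846 CPM against 0.65 and 0.534, near the limit of reading, and lost its call without any 1 library (adjusted p up to 0.26). FAT3, FAT4 and CDH2 kept theirs each time, and no gene of the list was called lower without TC shZZZ3 replicate 2.

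Of 40 receptor tyrosine kinases, 2 were higher and 3 lower in YT shZZZ3 (1.52% and 1.1% of all genes, median −0.13). EPHB1, an ephrin receptor, was at 12.8 and 12 CPM against 0.447 and 0.695 (4.27 ± 0.314, adjusted p = 9.64e-05), and was higher in YT with shNT as well (2.84, adjusted p = 0.000354). FLT4 (VEGFR3) was at 3.31 and 3.21 CPM against 0.406 and 0.695 (2.41, adjusted p = 0.0141). FGFR1 was at 84.2 and 63.1 CPM against 178 and 170 (−1.24 ± 0.197, adjusted p = 0.00609), while with shNT it was at 150 and 171 against 205 and 159 (−0.18). NTRK2, a neurotrophin receptor, was at 0.582 and 0.761 CPM against 4.83 and 5.56 (−2.80, adjusted p = 0.012), and EPHA4 at 6.51 and 6.39 against 12.1 and 14.4 (−1.03, adjusted p = 0.0337). EPHB1 kept its call whichever library was left out, whereas EPHA4 lost its call without any 1 of the 4 shZZZ3 libraries. FLT4, FGFR1 and NTRK2 lost theirs without either TC shZZZ3 library, and NTRK2 also without YT shZZZ3 replicate 1.

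Endothelial markers leaned to YT with shZZZ3. Of 14 tested, 3 were called higher and 1 lower (1.52% and 1.1% of all genes). A positive difference was seen in 13 (50.8% of all genes), and the median was 1.03. With shNT, 0 were called higher and 1 lower (5.58% and 3.65% of all genes), and the median was −0.31. PECAM1 (CD31) was at 22.2 and 19.5 CPM in YT shZZZ3 and 2.8 and 2.57 in TC shZZZ3 (2.91, adjusted p = 0.00636), and at 2.06 and 2.7 against 5.61 and 4.44 with shNT (interaction 3.97, adjusted p = 0.00735). ESAM, a junction protein, was at 19.9 and 13.7 CPM against 2.03 and 1.71 (3.10, adjusted p = 0.0219, interaction 4.25, adjusted p = 0.0183). VWF was at 3.06 and 3.17 CPM against 0.69 and 1.12 (1.71, adjusted p = 0.0292), and the factor ERG ran against these, at 6.48 and 7.74 against 27.1 and 26.2 (−1.89, adjusted p = 0.0337). CDH5 (VE-cadherin) was at 87.1 and 79.3 CPM against 39.8 and 35.3 (1.15, adjusted p = 0.2). The calls of VWF and ERG were lost without any 1 of the 4 shZZZ3 libraries. Those of PECAM1 and ESAM were lost without either TC shZZZ3 library, and that of ESAM also without YT shZZZ3 replicate 1.

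Summed CPM of the endothelial markers was 509 and 438 in YT shZZZ3, 337.6 and 337.2 in TC shZZZ3 and 310.1 to 367 with shNT. EMCN was at 0.592 CPM or less, and CLDN5 at 1.46 or less, in these 8 libraries. The median differences of the lists for other cell types were smaller in size with shZZZ3, from −0.60 (epithelial) to 0.42 (adipocyte), against 1.03. Summed CPM of the epithelial markers was lower in YT shZZZ3, at 739 and 416, than in TC shZZZ3, at 950 and 785. Of 12 fibroblast markers COL3A1 was higher and COL1A2 lower, and of 11 epithelial markers KRT5 and CDH1 were lower. Over all genes, 1.52% were called higher and 1.1% lower. None of 8 adipocyte or 5 blood cell markers was called with shZZZ3 by edgeR or DESeq2 (2 and 0 had an unadjusted p under 0.05), and PTPRC, HBB, ADIPOQ, FABP4 and LEP did not reach the mean of 5 counts needed for testing. The part of other cells in these differences was not tested. In bulk RNA, more cells with a transcript and more of it per cell cannot be told apart.

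The other lists gave few calls with shZZZ3, where 1.52% of all genes were called higher in YT and 1.1% lower. Of 26 interferon-induced genes, 34 HOX genes and 9 sine oculis homeobox and EYA factors, none was called by edgeR, DESeq2 called 1, 1 and 0, and 4, 3 and 0 had an unadjusted p under 0.05. Of 20 genes induced by ERK signalling, EPHA4 was lower, against 6 higher with shNT (5.58% of all genes). Of 19 integrins, ITGB2 was lower, at 0.437 and 0.465 CPM against 3.53 and 2.78 (−2.59, adjusted p = 0.00352), a call lost without TC shZZZ3 replicate 1 (adjusted p = 0.0501). Of 12 genes of the dystrophin complex, DMD was called.

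Some genes called with shZZZ3 sat side by side. Beside the myosin run and the ZFP42 run, 4 protocadherin genes of the beta cluster and PCDH12 on chromosome 5 (PCDHB8, PCDHB12, PCDHB13 and PCDHB15) were higher in YT by 2.11 to 2.69 log2 and ranged from −0.87 to 0.26 with shNT, where none was called. FMN2 and RGS7 on chromosome 1 were higher in YT (3.87 and 4.89) and lower with shNT (−1.15 and −2.60). FMN2, an actin nucleator, was at 11.6 and 9.39 CPM in YT shZZZ3 and 0.772 and 0.481 in TC shZZZ3, against 1.8 and 1.78 and 3.47 and 4.68 with shNT. Histone genes H2AC6, H2BC5, H2BC6 and H4C8 on chromosome 6 were higher in YT by 1.08 to 1.26. Copies within the protocadherin and histone clusters are alike, so how reads were split among them is uncertain.

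Whole chromosomes differed little between the lines with shZZZ3. Among genes that averaged 50 or more counts, the median log2 difference was lowest on chromosome 8, at −0.173 over 453 genes, and ran from −0.137 (chromosome 16) to 0.172 (chromosome 14) on the others. Of the chromosome 8 genes, 1 was called higher and 10 lower in YT. All 8 windows of 20 Mb along the chromosome had a negative median. The same median was 0.0853 with shNT and −0.486 with shYEATS2. Relative to the mean of all libraries, the chromosome 8 median was −0.139 and −0.0213 in YT shZZZ3, 0.107 and 0.104 in TC shZZZ3, and for the other hairpins in YT 0.214 and 0.144 (shNT) and −0.346 and −0.414 (shYEATS2). The YT shZZZ3 pair thus lay below the TC shZZZ3 pair, by less than with shYEATS2.

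**Figure D5:**
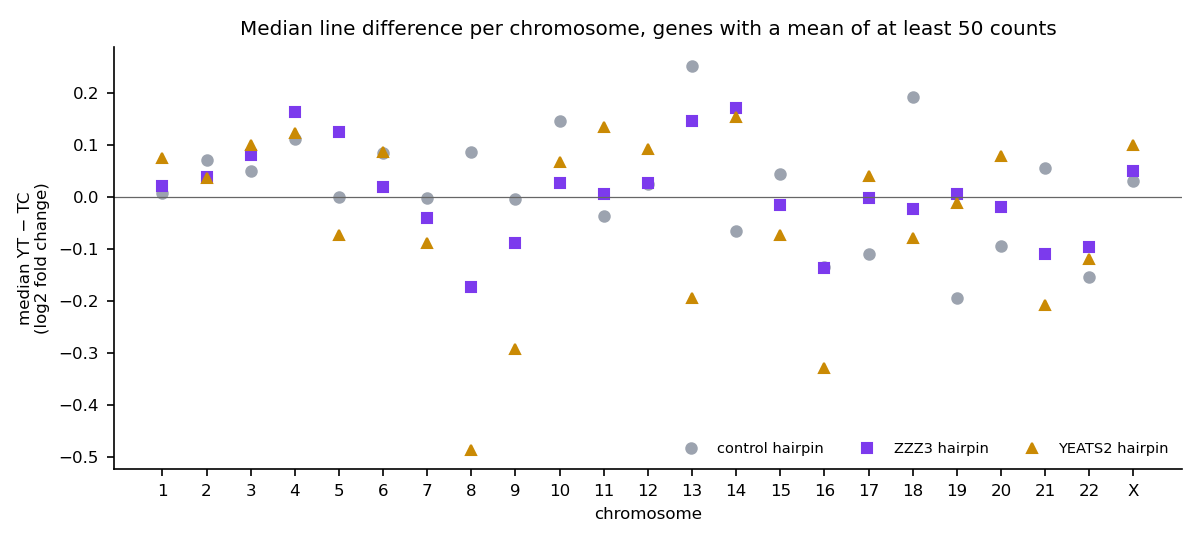
Median log2 difference between YT and TC per chromosome for shNT, shZZZ3 and shYEATS2, over genes that averaged 50 or more counts. With shZZZ3 the medians stay between −0.173 and 0.172, and chromosome 8 stands lowest with shZZZ3 (−0.173) and with shYEATS2 (−0.486).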

How the data were processed

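RNA from SW872 cells was sequenced in 12 libraries, 2 for each fusion and hairpin. The deposited values are raw counts of reads per Ensembl gene. Per the methods of the study the reads were aligned to hg38 with HISAT2 in the bcbio-nextgen pipeline, with Salmon also described, and per the labels base calls were made with bcl2fastq; which tool gave these counts is not stated. The per-library and combined count tables held the same values (0 cells differed), and 25748 of 58735 genes had no count. Totals per library were 17451893 to 29294805, and intervals and floors (3 counts in each library of the group) cover counting error only.

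Counts were tested with edgeR 4.0.16 (R 4.3.3, limma 3.58.1): TMM factors, a robust quasi-likelihood fit over 6 groups of 2 libraries, genes averaging 5 or more counts (18415), and Benjamini-Hochberg adjustment, with genes called under 0.05. The study used DESeq2, which was run here (1.42.0) as an alternative. Fold changes used a prior count of 2. An SE was the unshrunken difference divided by the square root of F, and none is given where a group had no counts. The interaction was the YT minus TC difference with shZZZ3 less that with shNT. It shares libraries with both differences, which share none with each other. Other alternatives were normalization, count filters, fewer groups, replicate number as a block, GC offsets and leaving out each library. The code was checked on simulated counts.

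Genes were named by rule: the 12 largest differences in each direction among called protein-coding genes averaging 50 or more counts and with pairs that did not overlap, the largest called under both hairpins (6 in each direction, and 6 of opposite direction), the 6 largest interactions in each direction, and members of the lists. The lists and this comparison were chosen with earlier results of these data known. TNC, TGFBI, MGP, FAT2, GPNMB, RRAGD, DDIT3, CCNB1, CDH5, TTN, EMCN, CLDN5, the further collagen chains and runs of neighbours (within 1000000 bases) were picked after their values were seen. Gene positions and exons are from GENCODE 44 (99.1% of IDs matched) and promoters from RefSeq (GRCh38.p14). A few results are not reported here.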

Additional observations from a re-analysis of the deposited data

Results flagged for a closer look

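The difference between YT and TC changed with the hairpin at 795 genes by the test of the interaction (edgeR quasi-likelihood test with Benjamini-Hochberg adjustment), and the 16 genes with its largest values under the naming rule are given here. Among the genes called in opposite directions with shZZZ3 and shNT, the interaction was 7.49 for RGS7 and 5.64 for LPAR6, a receptor of lysophosphatidic acid, whose YT minus TC difference was positive with shZZZ3. It was −6.18 for CMKLR2, −6.44 for ITIH5, −6.65 for the phospholipid flippase ATP10A and −5.54 for the long non-coding RNA LINC01582, all lower in YT with shZZZ3 and higher with shNT. The shZZZ3 calls of LPAR6, LINC01582 and ATP10A were lost in 3 of 4 fits that left out a library, whereas the interaction was lost for LPAR6 alone, without YT shNT replicate 2 (adjusted p = 0.0573).

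Among the other positive interactions named by the rule, FAT3 (5.94), HMCN1 (5.05) and FMN2 (5.01) are described above. LAMP5, a lysosome-associated membrane protein of neurons, was at 47.2 and 35.3 CPM in YT shZZZ3, 4.79 and 4.33 in TC shZZZ3, whereas the shNT libraries held 5.17 and 5.92 (YT) and 20.4 and 13.5 (TC) (interaction 4.75). GJA4, a connexin of arteries, was at 9.39 and 6.85 CPM in YT shZZZ3 and stayed at 0.992 or less in the other 6 libraries (4.76). MKX, a tendon homeobox factor, had an interaction of 4.90 without a call with shZZZ3 itself (adjusted p = 0.0649). The interactions of LAMP5 and MKX were lost without either TC shZZZ3 library or either YT shNT library (adjusted p up to 0.0636 and 0.136), and that of GJA4 without TC shNT replicate 1, TC shZZZ3 replicate 2 or either YT shNT library (up to 0.173). HMCN1 lost it without TC shZZZ3 replicate 1 or YT shNT replicate 2 (up to 0.0519).

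The remaining negative interactions named by the rule were those of INHBE (−6.33), KLHDC7B (−6.33), LAMA1 (−5.20) and GDF15 (−5.19). KLHDC7B was at 10.2 and 14.4 CPM in YT shNT and at 0.182 or less in the other 6 libraries, and its interaction was lost without either TC shZZZ3 library or either YT shNT library (adjusted p up to 0.284). Several of the 12 interactions named by the rule lost their call when single libraries were left out. INHBE, KLHDC7B, LAMA1 and GDF15 were not called between the lines with shZZZ3 (adjusted p = 0.594, 0.932, 0.909 and 0.962).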

How the results depend on the processing

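No call of a named gene was reversed under any alternative. All 482 genes called with shZZZ3 and all 795 called interactions kept their direction wherever they were tested. The direction of calls with shNT and with shYEATS2 was not compared between alternatives. DESeq2 called 789 genes with shZZZ3 and 1274 interactions. Without a filter on counts the calls were 1214 with shZZZ3, 2710 with shNT, 1549 interactions and 307 shared in direction by both hairpins, and with a mean of at least 50 counts they were 279 with shZZZ3, 84 shared and 1490 with shYEATS2. With the 4 libraries alone the shNT contrast gave 941. GC offsets gave 1078 with shZZZ3, 3486 with shNT, 2039 interactions, 4554 with shYEATS2 and 287 shared. GC offsets added after seeing the data, without YT shZZZ3 replicate 1 or 2, gave 1611 and 1731 interactions, and 620 and 551 calls with shZZZ3. The cause of these shifts was not tested, other than that a filter changes the genes tested. Leaving out 1 library gave 101 to 349 calls with shZZZ3, 486 to 3108 with shNT, 857 to 2110 with shYEATS2, 204 to 1012 interactions and 35 to 179 shared calls.

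The labels do not say that a replicate number marks a shared batch or day, and correlations of same-numbered deviations ran from −0.44 to 0.90 over all pairs of groups, so pairing was not established. Between TC shZZZ3 and YT shZZZ3 the correlation was 0.462 (0.422 after GC offsets), a hint of pairing in the data for these groups. With the replicate number as a block, 662 genes were called with shZZZ3 and 1021 interactions. With the block and GC offsets together the calls were 1425 with shZZZ3, 4195 with shNT, 2657 interactions, 5281 with shYEATS2 and 388 shared.

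With 2 libraries in each group, 1 library decides many calls. Genes under about 1 CPM rest on few counts. For the named genes, 1404 values kept their direction and side of the threshold, 175 lost the call, 5 gained it and 0 were reversed.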
